A study of Mus musculus with 272 samples.

Results

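Histone-modifying enzyme genes were chosen from the deposited table by symbol. A gene counted as a member when its symbol began with Kdm, Kmt, Kat, Hdac, Sirt or Prmt and a digit, with Setd and a digit or the letter b, or with Ehmt, Suv39h, Ezh1 or Ezh2. Of 15771 gene symbols 73 matched, and 72 were kept because the Y-linked Kdm5d was left out. The members were sorted by the best known activity of each enzyme into 33 writers, which add a mark, 28 erasers, which remove one, and 11 others. All Prmt genes were counted as writers and all Hdac genes as erasers, whether or not histones are their main substrate. The writers were 8 lysine acetyltransferases, 7 arginine methyltransferases, 6 methyltransferases of H3K4, 6 of H3K9, 3 of H4K20, 2 of H3K27 and 1 of H3K36. The erasers were 10 deacetylases of classes I, II and IV, 3 nuclear sirtuins, and demethylases of H3K9 (6), H3K4 (5), H3K27 (2) and H3K36 (2). The others were 4 sirtuins of the cytoplasm and mitochondria, 6 SET or JmjC proteins without a settled histone activity, and Kdm4dl. Setd7, Prmt8, Kdm4d, Hdac7 and Setd9 were not analysed here.

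Histones package DNA, and their tails carry acetyl and methyl groups that mark active or silent chromatin. Acetyltransferases and methyltransferases place these groups, and deacetylases and demethylases take them off, so the balance of both classes sets the state of a locus. The growing oocyte stores transcripts that the egg and the zygote translate before the embryonic genome is switched on, and many marks inherited from the gametes are rebuilt in the first cleavages.

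The study sequenced RNA of mouse oocytes and embryos at 8 stages: germinal vesicle (GV) and metaphase II (MII) oocytes, zygotes, 2-cell, 4-cell and 8-cell embryos, morulae and blastocysts. Each stage had 4 transcriptome libraries from pools of 20 oocytes or embryos, and 3 sucrose gradients, each loaded with a lysate of about 100 oocytes or embryos made with cycloheximide, a drug that holds ribosomes on their transcripts, and collected in 10 fractions. The labels used here name no other treatment and no strain, age or genotype, and they do not say whether pools or gradients came from separate animals, so p-values measure the spread between these samples, which may be technical. Values are CPM, a read count adjusted for the total of its library, and they come from libraries of polyadenylated RNA, so that transcript number and poly(A) tail length cannot be told apart.

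Transcriptome libraries held 11.2 to 24.3 M reads and fraction libraries 0.0102 to 43.2 M (median 18.6), with 15 of the 240 fraction libraries under 1 M, all of them in GV, 2-cell, 4-cell, 8-cell and morula gradients. Stage labels were checked against marker genes. Summed over 8 oocyte genes such as Zp3 and Gdf9, transcriptomes held 22178 to 24567 CPM in GV oocytes and at most 155 CPM from the 4-cell stage on. The 5 genes of the 2-cell list, such as Zscan4d, summed to 2231 to 2971 CPM in 2-cell embryos and to at most 197 CPM at other stages. The 8 measured genes of the blastocyst list summed to 2473 to 2977 CPM in blastocysts and to at most 496 CPM before. Krt8 (1219 ± 128 CPM) and Krt18 (886 ± 151 CPM) were the largest parts of that sum. Gata4 of the same list went the other way, from 24.8 ± 10.5 CPM in 4-cell embryos to 1.37 ± 0.979 CPM in blastocysts. Of the 12 cumulus and granulosa genes 6 were in the table, with a highest sum of 222 to 339 CPM in 4-cell embryos. In those 4-cell libraries Nr5a2, a gene the embryo also expresses, stood at 251 ± 55.9 CPM (SD, n = 4), Amhr2 at 24.9 ± 7.18 CPM (0 in GV oocytes), Kitl at 10.6 ± 3.57 CPM and Cyp19a1 at 0.0425 ± 0.0508 CPM, and Inha and Fshr were at 0. Their part in the results was not tested.

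Promoter sequences are shown for paralogues that parted ways between the 2-cell and the 4-cell stage: the arginine methyltransferases Prmt1 and Prmt2, and the lysine demethylases Kdm1a and Kdm1b. The RefSeq table of promoters (GRCm38.p6, an older build than the GRCm39 named in the submitters' processing notes) had an entry for 59 of the 72 members, and the 250 bases before the annotated start are printed 5′ to 3′ on the gene's strand. Capitals mark 4 searched motifs on either strand: the GC box GGGCGG, the CCAAT box CCAAT, the TATA box TATAAA and the E-box CACGTG. The windows lie at chr7:44986421-44986670 (minus strand) for Prmt1, chr10:76237866-76238115 (minus) for Prmt2, chr4:136602724-136602973 (minus) for Kdm1a and chr13:47043249-47043498 (plus) for Kdm1b.
Prmt1: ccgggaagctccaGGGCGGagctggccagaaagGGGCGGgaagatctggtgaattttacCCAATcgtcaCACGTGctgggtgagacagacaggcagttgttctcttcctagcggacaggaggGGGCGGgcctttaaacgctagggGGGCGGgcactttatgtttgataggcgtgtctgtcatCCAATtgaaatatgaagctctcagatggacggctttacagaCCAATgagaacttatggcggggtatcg
Prmt2: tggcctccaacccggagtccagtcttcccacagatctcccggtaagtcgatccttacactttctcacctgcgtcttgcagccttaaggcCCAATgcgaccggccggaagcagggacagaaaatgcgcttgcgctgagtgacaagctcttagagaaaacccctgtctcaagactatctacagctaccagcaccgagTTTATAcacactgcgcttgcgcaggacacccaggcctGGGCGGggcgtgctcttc
Kdm1a: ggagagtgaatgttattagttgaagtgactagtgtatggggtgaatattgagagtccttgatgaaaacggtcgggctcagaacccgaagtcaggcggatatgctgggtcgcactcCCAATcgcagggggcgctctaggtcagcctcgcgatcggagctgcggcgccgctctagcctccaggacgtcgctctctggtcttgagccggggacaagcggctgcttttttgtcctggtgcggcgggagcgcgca
Kdm1b: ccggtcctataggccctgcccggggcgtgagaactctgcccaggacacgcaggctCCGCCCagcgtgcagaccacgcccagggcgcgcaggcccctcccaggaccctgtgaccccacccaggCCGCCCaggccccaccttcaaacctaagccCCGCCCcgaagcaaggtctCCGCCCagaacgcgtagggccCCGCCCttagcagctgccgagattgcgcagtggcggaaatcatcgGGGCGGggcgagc

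The Prmt1 window held 4 GC boxes, 3 CCAAT boxes and 1 E-box, and the Prmt2 window 1 GC box, 1 CCAAT box and 1 TATA box. Kdm1a had 1 CCAAT box and no GC box, while Kdm1b had 6 GC boxes and no CCAAT box. All 4 windows were rich in CpG, with 13, 14, 21 and 22 sites, against a median of 6 over all 32851 promoter windows and 17 over the members' 78 windows. Among members' windows 64.1% held a GC box and 44.9% a CCAAT box, against 32.7% and 33.8% of all promoter windows. The TATA box was in 3.85% of the members' windows and 12.4% of all. Of the members that rose from 2-cell to 4-cell embryos, 62.5% of 40 windows held a GC box, and of those that fell, 56.25% of 16. These are counts of letters in the window, and no test was made of them.

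Transcriptomes carried most members at every stage, and 56 of the 72 were above 0 in each of the 32 libraries. All changes below are differences on the log2(CPM + 1) scale between the mean of 4 libraries a stage, given with their standard error, from a limma fit in which 71 of the 72 members passed the filter on low values (Hdac11 did not). A change was called at an adjusted p under 0.05 and a size of at least 1. In these pooled samples fewer cells of a type and less RNA per cell cannot be told apart. The mean level of 13 writers and 11 erasers was highest in blastocysts and that of 10 writers and 7 erasers in 4-cell embryos, while 7 writers and 4 erasers had their highest level in GV or MII oocytes.

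**Figure D1:**
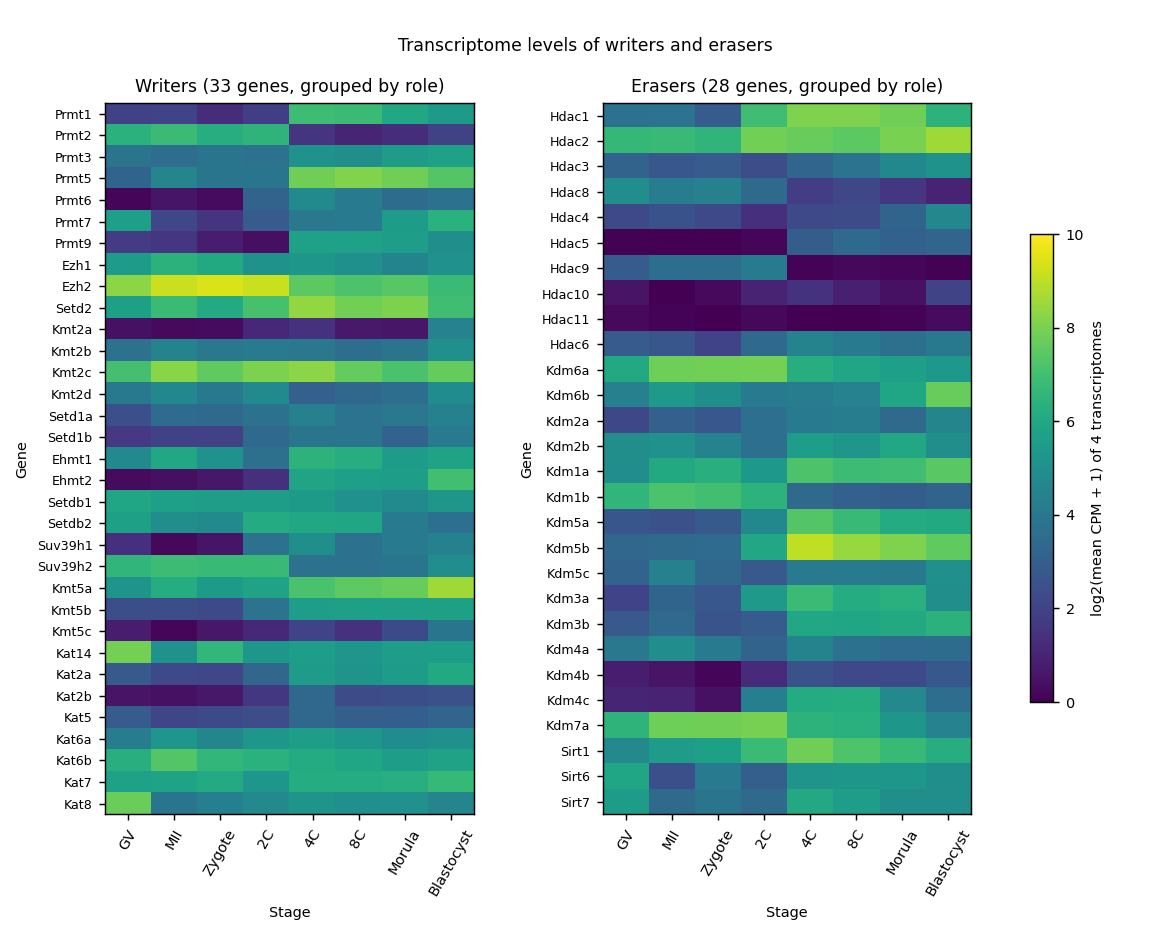
Transcriptome level of 33 writers (left) and 28 erasers (right) at 8 stages, as log2 of the mean CPM + 1 over 4 libraries, with genes in rows grouped by role. Prmt2, Kdm1b and Suv39h2 are high up to the 2-cell stage and low from the 4-cell stage, while Prmt1, Prmt5, Ehmt2 and Kdm5b show the opposite order.

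Oocyte maturation, from GV to MII, asks which stored enzyme transcripts changed while transcription is silent. Of 71 members tested 25 were called, 15 higher and 10 lower, beside 34.5% of all genes (9.11% higher and 25.3% lower). Of 8 acetyltransferases 2 were called higher and 2 lower, and of 3 nuclear sirtuins 2 were called, both lower. Kat8, the acetyltransferase that acts on H4K16, stood at 191, 229, 213 and 227 CPM in GV and at 18.1, 16.8, 8.87 and 11 CPM in MII oocytes. Every MII library was below every GV library, and the change was -3.93 (SE 0.23, adjusted p = 4.81e-17). Kat14, the acetyltransferase of the ATAC complex, fell from a range of 228 to 251 CPM to 30.6 to 35.7 CPM (-2.82, SE 0.16).

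Prmt7, which makes monomethylarginine, fell from 49.4 to 3.35 CPM (stage means; -3.58, SE 0.23). Sirt6, a deacetylase of H3K9, went from 60.4, 67, 54.7 and 52.6 CPM to 6.35, 4.79, 3.75 and 2.75 CPM (-3.50, SE 0.21, adjusted p = 1.88e-16), and Sirt7, a nucleolar deacetylase, from 44.6 to 10.1 CPM on average (-2.10, SE 0.26). The ranges of both sirtuins did not overlap between the stages. The third nuclear sirtuin, Sirt1, had a change of 0.74 (SE 0.26) that was not called. Of the sirtuins outside the nucleus 1 was called higher and 3 lower.

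Kdm6a, which removes methyl groups from H3K27, rose from 70.7, 74.1, 63 and 56.2 CPM to 218, 235, 172 and 246 CPM (1.70, SE 0.17). Other genes called higher were Kdm7a (1.29), an H3K9 and H3K27 demethylase, Kdm1a (1.15), which acts on H3K4, Prmt5 (1.33), which dimethylates arginine symmetrically, Setd2 (1.10), the H3K36 trimethylase, and Kmt5a (1.03), the H4K20 monomethylase, whose call was lost without library A. Ezh2, the catalytic subunit of Polycomb repressive complex 2, had a change of 0.96 (SE 0.13), just under the size limit. Suv39h1, an H3K9 trimethylase, fell by 1.15 from a GV mean of 1.62 CPM, though not under quantile normalization. Setd4, picked after its values were seen and without a settled histone activity, had the largest fall of all members, from 821 to 976 CPM in GV to 23.3 to 36.2 CPM in MII oocytes (-5.03).

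By class, 8 writers were called higher and 4 lower of 33, with a median change of 0.085, and 5 erasers higher and 2 lower of 27, with a median of 0.16. The median over all genes was -0.11. The split depended on scaling: with quantile normalization it was 28 higher and 8 lower, and with edgeR on recovered reads 24 and 11. Under quantile normalization the median of all genes was 0.16, and no called member changed sign under either setting.

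Between MII oocytes and zygotes 3 of 71 members were called, all higher, beside 10.3% of all genes (5.79% higher and 4.48% lower). Kat14 rose from a range of 30.6 to 35.7 CPM to 86.2 to 115 CPM (1.51, SE 0.16), and Sirt6 from 2.75 to 6.35 CPM to 13.9 to 20.8 CPM (1.76, SE 0.21). Both had fallen during maturation, as had Setd4, the third gene called (1.82). Writers had a median change of -0.16 and erasers of -0.20, and that of all genes was 0. With a pseudocount of 0.1 or with edgeR 8 members were called, 5 higher and 3 lower.

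From the zygote to the 2-cell stage, when the embryonic genome is switched on in the mouse, both erasers and writers were among the members with the largest rises. Of 71 members 22 were called, 18 higher and 4 lower, beside 33.9% of all genes (25.2% higher and 8.71% lower). Hdac1, a class I deacetylase of the Sin3, NuRD and CoREST complexes, went from 5.22, 6.83, 7.01 and 7.06 CPM to 118, 104, 153 and 103 CPM (3.99, SE 0.18, adjusted p = 4.82e-20). All 2-cell libraries were far above all zygote libraries. Its close relative Hdac2 rose from 93.3 to 230 CPM on average (1.28, SE 0.16), and this call was lost with edgeR.

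Kdm4c, an H3K9 and H3K36 demethylase, rose from 0.359 to 18.8 CPM (3.85, SE 0.25), Kdm3a, an H3K9 demethylase, from 5.49 to 42.1 CPM (2.77, SE 0.25), and Kdm5b, an H3K4 demethylase, from 8.93 to 11.5 CPM to 45.6 to 67.8 CPM (2.45, SE 0.16). Among writers Suv39h1 rose from 0.345, 0.806, 0.35 and 0.389 CPM to 12.1, 10.3, 15 and 12.8 CPM (3.20, SE 0.26). Prmt6, which methylates H3R2, rose from 0.235 to 8.18 CPM (2.87, SE 0.21), and Kmt5b, an H4K20 methylase, from 3.7 to 12.9 CPM (1.54, SE 0.19), the last not under quantile normalization. Ehmt1, which with Ehmt2 dimethylates H3K9, was the writer with the largest fall, from 34.5 to 11.9 CPM (-1.48, SE 0.16).

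Ezh2 (-0.27), Kdm6a (0.06), Setdb1 (0.03), Suv39h2 (0.03), Kmt2b (0.05) and Prmt5 (-0.02) were not called. Kdm4dl, picked after its values were seen, stood at 0, 0, 0.0584 and 0 CPM in zygotes and at 33.2, 19.8, 32 and 16.3 CPM in 2-cell embryos. It closely resembles Kdm4d, so reads may have been split between them and its level is uncertain. Writers were called 7 higher and 2 lower (median 0.38) and erasers 8 higher and 1 lower (median 0.16), beside a median of 0.37 over all genes. With quantile normalization the split over members was 12 higher and 18 lower and with edgeR 18 and 14, while the median of all genes was -0.08 and 0.31.

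Among all genes, as among members, more were called between 2-cell and 4-cell embryos than in any of the other 6 transcriptome comparisons. Of 71 members 47 were called, 32 higher and 15 lower, beside 64.8% of all genes (31.8% higher and 32.9% lower). Writers were called 14 higher and 4 lower of 33 (median change 0.82) and erasers 16 higher and 5 lower of 27 (median 1.17), while the others were called 2 higher and 6 lower of 11 (median -1.19). The median over all genes was 0.02. With quantile normalization the members' split was 34 and 14 and with edgeR 31 and 15, and no called member changed sign.

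Arginine methyltransferases changed in all 7 cases, 6 higher and 1 lower. Prmt1, the main enzyme of asymmetric arginine dimethylation, stood at 3.85, 1.23, 2.96 and 2.36 CPM in 2-cell and at 97.1, 128, 96.8 and 149 CPM in 4-cell embryos (5.08, SE 0.23, adjusted p = 6.5e-21). Its paralogue Prmt2 went the other way, from 130, 74.5, 85 and 72.2 CPM to 0.619, 1.58, 1.71 and 3.9 CPM (-5.03, SE 0.32, adjusted p = 2.05e-16). For both genes the libraries of the 2 stages did not overlap. Prmt5 rose from 17, 13.6, 11.1 and 12.9 CPM to 222, 250, 235 and 205 CPM (3.98, SE 0.16). Prmt9, another symmetric arginine methylase, rose from 0, 0.307, 0.846 and 0.147 CPM to 48.9, 70.4, 47.2 and 41.6 CPM (5.33, SE 0.25).

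Of 6 H3K9 methyltransferases 3 were called higher and 1 lower. Ehmt1 rose from 11.9 to 87.6 CPM on average (2.80, SE 0.16). Ehmt2 rose from 2.82, 0.307, 1.44 and 1.99 CPM to 47.1, 75.6, 43.5 and 61.7 CPM (4.53, SE 0.28, adjusted p = 7.36e-17), and Suv39h1 from a mean of 12.5 to 30.4 CPM (1.21, SE 0.26). Suv39h2, the paralogue of Suv39h1, fell from 96.3, 106, 102 and 131 CPM to 10.3, 19.1, 9.65 and 10.5 CPM (-3.08, SE 0.21). Thus Suv39h1 and Suv39h2 moved in opposite directions. Setdb1, which trimethylates H3K9 at retroelements, had a change of -0.13 (SE 0.16) that was not called.

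The 2 enzymes of H3K27 methylation differed in call. Ezh2 fell from 620, 572, 541 and 594 CPM to 193, 191, 146 and 175 CPM (-1.72, SE 0.13), and Ezh1 had a change of 0.21 (SE 0.21). Of the H3K27 demethylases, Kdm6a fell from 208 to 288 CPM to 59.9 to 93.5 CPM (-1.70, SE 0.17) and Kdm6b had a change of 0.16 (SE 0.23). In each of these groups 1 of 2 members was thus called. Setd2 (1.31) and Kmt5a (1.35) rose, the first of them not under quantile normalization. Among 6 H3K4 methyltransferases 1 was called, Kmt2d, which fell (-1.75), and Kmt2b had a change of -0.11. Of 8 acetyltransferases 2 were called, both higher, and Kat5, the Tip60 enzyme, had a change of 0.92 (SE 0.28) that was not called.

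Demethylases of H3K4 and H3K9 changed in all 11 cases, 9 higher and 2 lower. Kdm5b rose from 64.2, 45.6, 64.5 and 67.8 CPM to 564, 522, 474 and 541 CPM (3.11, SE 0.16, adjusted p = 4.3e-19). Kdm1a rose from 49.4, 34.9, 36.2 and 38.4 CPM to 132, 155, 168 and 129 CPM (1.86, SE 0.15), while Kdm1b, the other demethylase of H3K4 that works through an amine oxidase domain and the one known from the oocyte, fell from 70.3, 86.8, 90.7 and 100 CPM to 7.33, 5.62, 14.5 and 12.2 CPM (-3.09, SE 0.24). The library ranges of Kdm1a and of Kdm1b did not overlap between the stages. Kdm3b rose from 6.42 to 60.5 CPM (3.05, SE 0.22) and Kdm4a from 8.1 to 21 CPM (1.25, SE 0.27). Kdm7a was the H3K9 demethylase called lower, from 249 to 88 CPM on average (-1.49).

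Deacetylases differed within their classes. Hdac1 rose from 120 to 270 CPM on average (1.17, SE 0.18), though not under quantile normalization, and Hdac2 had a change of -0.20 (SE 0.16). Hdac9, of class IIa, fell from 8.98, 15.8, 15.6 and 23.4 CPM to 0.0516, 0, 0 and 0.203 CPM (-3.93, SE 0.24), while Hdac5 of the same class rose from 0.123 to 6.78 CPM (2.76). All 3 nuclear sirtuins rose, Sirt7 by 2.61, Sirt6 from a mean of 7.19 to 34.7 CPM and Sirt1 by 1.03, and all 4 sirtuins outside the nucleus fell. The Sirt1 change lay at the size limit: it was not called with edgeR or quantile normalization, or without any of 5 single libraries (E and F of the 2-cell and A, B and D of the 4-cell stage).

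After the 4-cell stage fewer members changed. Between 4-cell and 8-cell embryos 2 of 71 were called, both lower, beside 2.6% of all genes (0.451% higher and 2.14% lower). Suv39h1 fell from 34.5, 23.3, 30.4 and 33.4 CPM to 15.4, 13.7, 4.09 and 15.9 CPM (-1.37, SE 0.26), and this call was lost without library C. Kat2b, an H3K9 acetyltransferase, was at the size limit (-1.02, adjusted p = 0.047) and was not called with edgeR, with quantile normalization or without library A, C or D. From 8-cell embryos to morulae 7 members were called, 3 higher and 4 lower, beside 11.9% of all genes (8.18% higher and 3.7% lower). Kdm6b, which removes H3K27 methylation, rose from 23.5, 21.4, 20.6 and 16 CPM to 73.6, 34.2, 58.7 and 71.7 CPM (1.46, SE 0.23), and Prmt7 from a mean of 15.8 to 43.5 CPM (1.38, SE 0.23). Setdb2, an H3K9 methyltransferase relative, fell from 59.6 to 17 CPM (-1.72, SE 0.20), Kdm4c from 71.1 to 25.3 CPM (-1.48, SE 0.25) and Kdm7a from 80.1 to 38.3 CPM (-1.02, SE 0.16), the last not without library B.

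From the morula to the blastocyst, when the first cell lineages form, 16 members were called, 12 higher and 4 lower, beside 26.8% of all genes (18.8% higher and 7.97% lower). H3K4 methyltransferase genes made up 3 of the calls, all higher of 6 tested. Kmt2a, the MLL1 enzyme, went from 0.557, 1.19, 0 and 0.317 CPM to 26.4, 20.4, 24.4 and 11.9 CPM (3.85, SE 0.31, adjusted p = 1.38e-12). At the earlier stages its mean level was at most 1.70 CPM. Kmt2d (1.27) and Kmt2b (1.20) rose too, but neither under quantile normalization and Kmt2b not with edgeR.

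Kdm6b rose again, to 155, 247, 220 and 201 CPM (1.81, SE 0.23), while Kdm6a had a change of -0.29 (SE 0.17) that was not called. Kmt5c, an H4K20 trimethylase (1.73), Ehmt2 (1.40), Suv39h2 (1.06), Hdac10 (1.55) and Hdac4 (1.46) rose. Hdac1 fell from 170, 262, 236 and 252 CPM to 100, 94, 62.1 and 89.4 CPM (-1.40, SE 0.18), and Setd2 (-1.12) and Kdm3a (-1.43) fell. Setd2 was not called without library C, nor Suv39h2 without library C or D, with quantile normalization or with edgeR, nor Ehmt2 with a pseudocount of 0.1. Hdac2 stood at 376 CPM in blastocysts, with a change of 0.57 (SE 0.16) that was not called. Writers were called 6 higher and 1 lower (median 0.31) and erasers 4 and 3 (median 0.05), beside a median of 0.16 over all genes. With quantile normalization the members' split was 7 higher and 8 lower and with edgeR 7 and 10.

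Writers and erasers were compared as sums, with each gene's CPM divided by the length of its exons so that levels of different genes can be added. The writer sum stayed between 444 and 520 CPM per kb at all stages. Ezh2 was part of it, at 109 CPM per kb in GV oocytes, 249 in zygotes, 208 in 2-cell and 62.9 in 4-cell embryos. The sum of the other writers was therefore not constant. The eraser sum rose from 172 ± 7.98 (SD, n = 4) in GV oocytes and 197 ± 14.3 in zygotes to 287 ± 20.8 in 2-cell and 506 ± 37.5 in 4-cell embryos. It stood at 365 ± 34.1 in blastocysts. In transcriptomes the eraser to writer ratio was 0.351 ± 0.0136 in GV oocytes, 0.421 ± 0.0343 in zygotes and 0.648 ± 0.0622 in 2-cell embryos. It was 0.974 ± 0.0488 in 4-cell embryos and 0.714 ± 0.0416 in blastocysts. All 4 libraries of the 4-cell stage (0.932 to 1.03) were above all of the GV, MII, zygote and 2-cell stages. The 8-cell libraries (0.786 to 0.933) overlapped those of the 4-cell stage, and morula libraries ran from 0.746 to 0.921. Summed without the length, the ratio ran from 0.42 in GV oocytes to 1.01 in 4-cell embryos. Gradients gave another order (mean and SD, n = 3). There the ratio per kb was highest in zygotes, at 0.684 ± 0.0962 in heavy and 0.654 ± 0.134 in light fractions. It was 0.374 ± 0.0317 and 0.561 ± 0.0916 in 2-cell, and 0.529 ± 0.23 and 0.587 ± 0.171 in 4-cell embryos. The difference between transcriptomes and gradients was not tested.

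The transcriptome ratio depended on 2 genes with a large share of their class. Ezh2 alone held 53.3% of the writer sum in zygotes and 46.7% in 2-cell embryos, and Hdac1 held 26.2% of the eraser sum in 4-cell and 30.6% in 8-cell embryos. Without these 2 genes the mean ratio was highest in 2-cell embryos (0.971 ± 0.101) and lower in 4-cell embryos (0.818 ± 0.0467). It was 0.436 ± 0.029 in GV oocytes, 0.747 ± 0.0568 in MII oocytes and 0.892 ± 0.115 in zygotes. Zygote libraries (0.732 to 0.997) overlapped 2-cell libraries (0.826 to 1.06). Per kb, the writer with the highest level was Kat8 in GV oocytes (136 ± 11.2 CPM per kb), Ezh2 in MII oocytes (212 ± 7.9), zygotes (249) and 2-cell embryos (208), Prmt5 in 4-cell embryos (84.8), 8-cell embryos (102) and morulae (83.2), and Kmt5a in blastocysts (127). The highest eraser was Sirt6 in GV oocytes (25.3), Kdm6a in MII oocytes (36.7) and zygotes (39.3), Hdac1 from the 2-cell stage (58.7) to the morula (113) and Hdac2 in blastocysts (88.8).

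**Figure D2:**
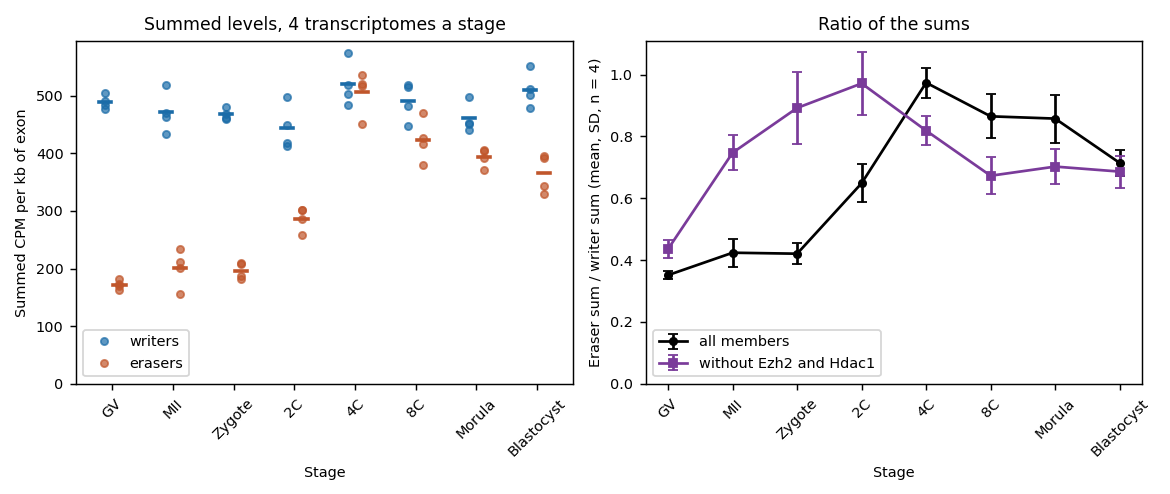
Summed CPM per kb of exon of writers and erasers in each of 4 transcriptome libraries a stage, with bars at the mean (left), and the eraser to writer ratio as mean and SD (right), for all members and without Ezh2 and Hdac1. The writer sum, with Ezh2 in it, stays between means of 444 and 520, and the eraser sum reaches 506 at the 4-cell stage. The stage with the highest ratio moves to the 2-cell stage when Ezh2 and Hdac1 are left out.

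The heavy fractions, numbers 6 to 10, were taken as the side of the gradient where transcripts carry many ribosomes, a convention, since the labels number the fractions and do not state the direction. A member's CPM was averaged over these fractions in each of 3 gradients a stage, and consecutive stages were compared in a limma fit in which 71 members passed the filter (Kat2b did not). From GV to MII 1 member was called, Setd4 (-3.25), beside 4.06% of all genes (0.833% higher and 3.22% lower). From MII to the zygote none was called, beside 1.49% (0.84% higher and 0.647% lower), with 3 members at an unadjusted p under 0.05 in limma and 4 in edgeR, where also 0 were called. Thus Kat8, at 162, 218 and 154 CPM in GV and 91.3, 79.5 and 78.6 CPM in MII heavy fractions, was not called, and neither was Sirt6, at 241, 243 and 206 CPM and then 371, 286 and 298 CPM. For both genes the heavy values of GV and MII oocytes did not overlap. This fit used a common spread for each gene over all stages, so few calls do not show that members stayed the same. In fits of only the stages compared, more members were called from GV to MII and from MII to the zygote. The counts are given at the end. Light fractions of MII oocytes held Kat8 at 282, 407 and 435 CPM. Both genes had fallen in the transcriptome, and the difference between the 2 kinds of library was not tested.

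From the zygote to the 2-cell stage 12 of 71 members were called in heavy fractions, 6 higher and 6 lower, beside 20.8% of all genes (5.1% higher and 15.7% lower). Hdac1 rose from 0.337, 0.544 and 1.42 CPM to 110, 47.3 and 48.7 CPM (5.23, SE 0.68, adjusted p = 1.03e-05). Suv39h1 (2.69, adjusted p = 0.0441) and Kdm5b (2.57, adjusted p = 0.0281) rose as well. Sirt6 fell from 553, 425 and 590 CPM to 2.76, 43.3 and 66.9 CPM (-4.53, SE 0.74), and Sirt7 from 229, 233 and 150 CPM to 5.15, 13 and 44.3 CPM (-3.68, SE 0.55). Kat8 (-3.60), Kat14 (-3.20) and Hdac4 (-3.57), a class IIa deacetylase, fell. The Suv39h1 call was lost without any 1 of the gradients A, B or C, that of Kdm5b without A or B, those of Kat8 and Kat14 without A or C, and that of Hdac4 without B. Kat8, Kat14 and Hdac4 were not called with edgeR either, Kat8 and Hdac4 not with quantile normalization, and Kat14 not with a pseudocount of 0.1. In a fit of the 2 stages alone the calls of Suv39h1, Kdm5b and Kat8 were lost.

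From the 2-cell to the 4-cell stage 26 of 71 members were called in heavy fractions, 10 higher and 16 lower, beside 37.8% of all genes (15.6% higher and 22.3% lower). Writers were called 6 higher and 5 lower of 32 (median -0.40) and erasers 4 and 6 of 28 (median -0.52), beside a median of -0.06 over all genes. Setdb1 went from 532, 131 and 297 CPM to 0.498, 0.0646 and 0.0268 CPM (-7.87, SE 1.06, adjusted p = 4.49e-06), the largest change of a member in this comparison. Kdm1b fell from 199, 56.2 and 161 CPM to 0, 0 and 1.17 CPM (-6.57, SE 0.94), and Kdm6a from 393, 74.3 and 194 CPM to 0, 17 and 0.978 CPM (-5.77, SE 1.03). No gradient of the later stage reached the lowest of the earlier one for these 3 genes.

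Prmt1 rose in heavy fractions from 54.5, 13.7 and 11.2 CPM to 252, 600 and 523 CPM (4.32, SE 0.46, adjusted p = 2.09e-07), and Prmt2 fell from 390, 447 and 330 CPM to 0, 46.9 and 70.9 CPM (-4.68, SE 0.97). Both paralogues were thus called in the same direction as in the transcriptome. Ehmt2 rose from 0, 0 and 0.175 CPM to 0.781, 131 and 77.9 CPM (4.65, SE 1.01), with gradient A far below the others. Sirt7 (3.66, SE 0.55) and Prmt5 (2.80, SE 1.06, adjusted p = 0.0426) rose, and Kdm6b fell (-3.11, SE 0.86). The Prmt5 call was lost without gradient A, that of Kdm6b without A or B and with quantile normalization, and both with edgeR. Hdac2 fell from 125, 2.68 and 121 CPM to 1.69, 1.43 and 0.429 CPM (-4.19, SE 1.01), and gradient B of the 2-cell stage was close to the 4-cell values. In a fit of the 2 stages alone the calls of Hdac2, Prmt2, Prmt5 and Kdm6b were lost.

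Transcriptome and heavy fraction calls, which share no library, were set side by side for the 70 members tested in both. From 2-cell to 4-cell embryos 15 were called in the same direction in both, 1 in opposite directions, 30 in the transcriptome alone, 10 in heavy fractions alone and 14 in neither. The opposite calls were those of Kdm2b, an H3K36 demethylase, with a transcriptome change of 1.99 and a heavy fraction change of -3.15. Setdb1 and Hdac2 were called in heavy fractions alone. Prmt9 was called in the transcriptome alone: in 4-cell embryos it stood at 41.6 to 70.4 CPM in transcriptomes and at 0 CPM in the heavy fractions of all 3 gradients, with 2.11, 0 and 1.18 CPM in the light fractions. From the zygote to the 2-cell stage 7 members were called in the same direction in both and 0 in opposite directions. Over all 14149 genes tested in both, 30.1% were called in the same direction in both kinds of library from 2-cell to 4-cell embryos, 0.968% in opposite directions, 34.6% in the transcriptome alone and 7.52% in heavy fractions alone, against 21.4%, 1.43%, 42.9% and 14.3% of the members. From the zygote to the 2-cell stage 8.4% of all genes were called in the same direction in both and 1.33% in opposite directions. Whether the 2 kinds of library differed in their change was not tested.

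**Figure D3:**
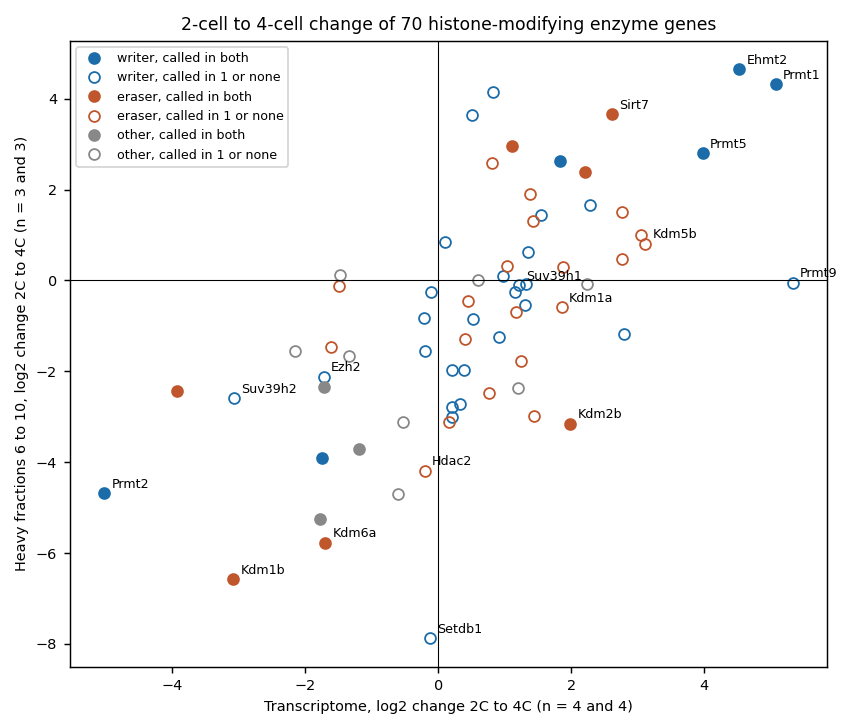
Change from 2-cell to 4-cell embryos on the log2(CPM + 1) scale for 70 members, in transcriptomes (x axis, 4 libraries a stage) and in heavy fractions (y axis, 3 gradients a stage), with filled points for members called in both. Prmt1, Ehmt2 and Prmt5 lie at the upper right, Prmt2, Kdm1b and Kdm6a at the lower left, and Setdb1 lies near 0 on the x axis with a change of -7.87 on the y axis.

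Zeros were common in these gradients. Of members' values in heavy fractions 43.8% were 0 in 2-cell and 46.1% in 4-cell embryos, against 13.7% in GV oocytes and 11.4% in blastocysts, while transcriptomes had at most 5.9%. When only members above 0 reads in most fractions were kept, an alternative added after the data were seen, 9 members remained from 2-cell to 4-cell and 5 were called: Kmt5b and Sirt6 higher, and Kdm6b, Setd4 and Kmt2d lower. Of 17 kept from zygote to 2-cell 4 were called, Hdac1 and Kdm5a higher and Sirt6 and Kat14 lower. The share called among all genes that pass the same filter was not computed, so these counts have no background beside them. The part of dropout in the other calls was not tested.

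From 4-cell to 8-cell embryos 4 members were called in heavy fractions, all higher, beside 6.54% of all genes (5.6% higher and 0.943% lower). Kat5 rose from 0, 0 and 0.223 CPM to 22.6, 30.1 and 15.8 CPM (4.43, SE 0.73, adjusted p = 0.00066), and Kdm2b from 0.434, 1.52 and 1.8 CPM to 55.9, 51.7 and 22 CPM (4.25, SE 0.75). Hdac5 (3.79), not called without gradient A or C, and Kdm4c (3.35), not called without B, with quantile normalization or with a pseudocount of 0.1, rose too. Neither was called with edgeR, and in a fit of the 2 stages alone none of the 4 was. From the 8-cell stage to the morula 3 were called, beside 7.98% of all genes (5.42% higher and 2.56% lower). Hdac2 rose to 33.4, 29.9 and 58.1 CPM (4.19, SE 1.01) and Prmt9 to 12.2, 6.47 and 15.5 CPM (3.22, SE 0.54), while Kmt2d, an H3K4 methylase, fell (-2.79, SE 0.59). The Hdac2 call was lost without gradient A or C, that of Kmt2d without C or with heavy fractions taken as 7 to 10, and those of Hdac2 and Prmt9 with edgeR. From the morula to the blastocyst no member was called in limma or edgeR, beside 0.0757% of all genes (0.0551% higher and 0.0207% lower), with 2 members at an unadjusted p under 0.05 in limma and 1 in edgeR.

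The position of members in the gradient was read within a stage, as heavy (fractions 6 to 10) minus light (1 to 5) on the log2(CPM + 1) scale, and all 72 members entered this limma fit. In GV oocytes no member was called in limma or edgeR, beside 0.0725% of all genes (0.0461% heavier and 0.0264% lighter), with 3 at an unadjusted p under 0.05 in limma and 2 in edgeR. In MII oocytes and zygotes 1 member was called in each, beside 3.23% of all genes in MII oocytes (1.71% heavier and 1.52% lighter) and 3.01% in zygotes (2.14% heavier and 0.87% lighter). In both it was Kmt2c, the MLL3 methyltransferase of enhancers. It stood at 178, 110 and 226 CPM on the heavy and 7.39, 8.92 and 5.44 CPM on the light side in MII oocytes (difference 4.34, SE 0.69, adjusted p = 7.68e-05), and at 102, 120 and 127 CPM against 16.9, 9.72 and 13.9 CPM in zygotes (3.04, SE 0.69, adjusted p = 0.00732). Every heavy value was above every light value. The zygote call was lost with edgeR and without gradient B or C. The limma fit used a common spread for each gene over all stages, and the share of zeros differed between stages. Few calls at a stage therefore do not show that members lay evenly on both sides there. When GV oocytes, MII oocytes or zygotes were fitted alone, more members were called at each of these stages. The counts are given at the end. The part of the common spread in this difference was not tested.

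In 2-cell embryos 12 members were called, 6 heavier and 6 lighter, beside 18.2% of all genes (6.43% heavier and 11.8% lighter). Kmt2c was heavier again, at 227, 141 and 343 CPM against 12.5, 20.1 and 57.7 CPM (3.13, SE 0.69). Setdb1 stood at 532, 131 and 297 CPM in heavy and 13.7, 9.91 and 93.3 CPM in light fractions (3.48, SE 0.99, adjusted p = 0.0105), and this call was lost with edgeR, with a pseudocount of 0.1 or without gradient A. Kdm3a stood at 119, 120 and 0 CPM in heavy and 0, 0 and 0.0142 CPM in light fractions (4.60, SE 1.20), so that gradient C held almost none on either side, and the call was lost without gradient A or B. Setdb2 (3.26) and Suv39h1 (2.76) were heavier, and Kat8 (-2.93) and Hdac4 (-3.38) lighter. Leaving out gradient A ended all 4 of these calls, gradient C those of Setdb2, Suv39h1 and Kat8, and gradient B that of Setdb2. With edgeR those of Setdb2, Suv39h1 and Kat8 were lost, and in a fit of this stage alone no member was called. Kdm5a, an H3K4 demethylase, was lighter at 57.4, 6.96 and 65.4 CPM against 357, 119 and 147 CPM (-2.56, SE 0.75), and Kdm3b lighter by -2.50, but without libraries under 1 M reads these 2 differences were 1.03 and 1.95, and with edgeR that of Kdm5a was 0.70.

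In 4-cell embryos 7 members were called, all lighter, beside 16.3% of all genes (3.4% heavier and 12.9% lighter). Setdb1 stood at 10.1, 31.9 and 10.7 CPM in light fractions and below 1 CPM in heavy ones (-3.78, SE 0.99, adjusted p = 0.00629). It was thus called on opposite sides in 2-cell and 4-cell embryos, although the 4-cell call was also lost without libraries under 1 M reads. The H3K9 demethylases Kdm4a (-3.63, SE 0.84), Kdm3b (-2.80) and Kdm4c (-2.55) were lighter and the other 3 of that group were not called. The H3K36 demethylase Kdm2b (-2.90) was lighter, as were the writers Setd1a (-2.59), an H3K4 methylase, and Kat2b (-1.68). The median difference was -0.89 for writers and -1.15 for erasers, beside -0.26 for all genes. Each of these 7 calls was lost without 1 or more of the gradients: A for Setd1a and Kdm2b, B for Setdb1 and Kdm4c, and C for Setd1a, Kat2b, Kdm3b and Kdm4a. With quantile normalization all of them but Kat2b were lost, and with edgeR all but Kdm4a. In a fit of this stage alone no member was called. With the sides of each gradient paired, the Setd1a call was lost. Among the 15 members above 0 in most 4-cell fractions 1 was called, Kdm3b.

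In 8-cell embryos 10 members were called, 3 heavier and 7 lighter, beside 9.05% of all genes (2.43% heavier and 6.62% lighter). Kdm3b was lighter, at 7.45, 8.51 and 6.95 CPM against 73.8, 127 and 87.3 CPM (-3.46, SE 0.82), with all heavy values below all light ones. Kdm2a (-3.12), an H3K36 demethylase, Kdm6b (-2.82), Sirt1 (-2.64) and Kat2b (-1.78) were lighter too. Prmt3, a cytoplasmic arginine methylase, was heavier at 21.8, 82.6 and 13.8 CPM against 0.0203, 2.21 and 4.42 CPM (3.54, SE 0.85), and so was Kdm5c (3.10), though not without any 1 of the 3 gradients. Without gradient A the calls of Prmt3, Kdm2a and Kat2b were lost, without B those of Prmt3, Kdm2a, Kdm6b and Sirt1, and without C those of Kdm2a, Sirt1 and Kat2b. With edgeR 1 member was called in 8-cell embryos, Prmt3, and in a fit of this stage alone 2 were, Kdm3b and Setd4. In morulae 4 were called, beside 5.81% of all genes (1.64% heavier and 4.17% lighter), and in blastocysts 1, beside 2.74% (0.633% heavier and 2.11% lighter). Prmt1 was heavier in both, at 738, 903 and 737 CPM against 179, 239 and 200 CPM in morulae (1.94, SE 0.38, adjusted p = 0.000492) and at 903, 1101 and 915 CPM against 202, 258 and 139 CPM in blastocysts (2.32, SE 0.38, adjusted p = 0.000117). With edgeR 0 members were called in morulae and the Prmt1 call there was lost. When morulae or blastocysts were fitted alone, more members were called, with counts given at the end. Few calls in the fit over all stages therefore do not show that members lay evenly on both sides there. Kdm5a (-2.79) and Kdm2a (-2.71) were lighter in morulae, and with the 2 sides of each gradient paired the Kdm2a call was lost, while 2 members were called in blastocysts. Leaving out any 1 gradient ended the morula call of Kdm2a, and gradient A that of Kdm5a. Leaving out libraries under 1 M reads left 6 calls in 8-cell embryos and 1 in morulae.

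**Figure D4:**
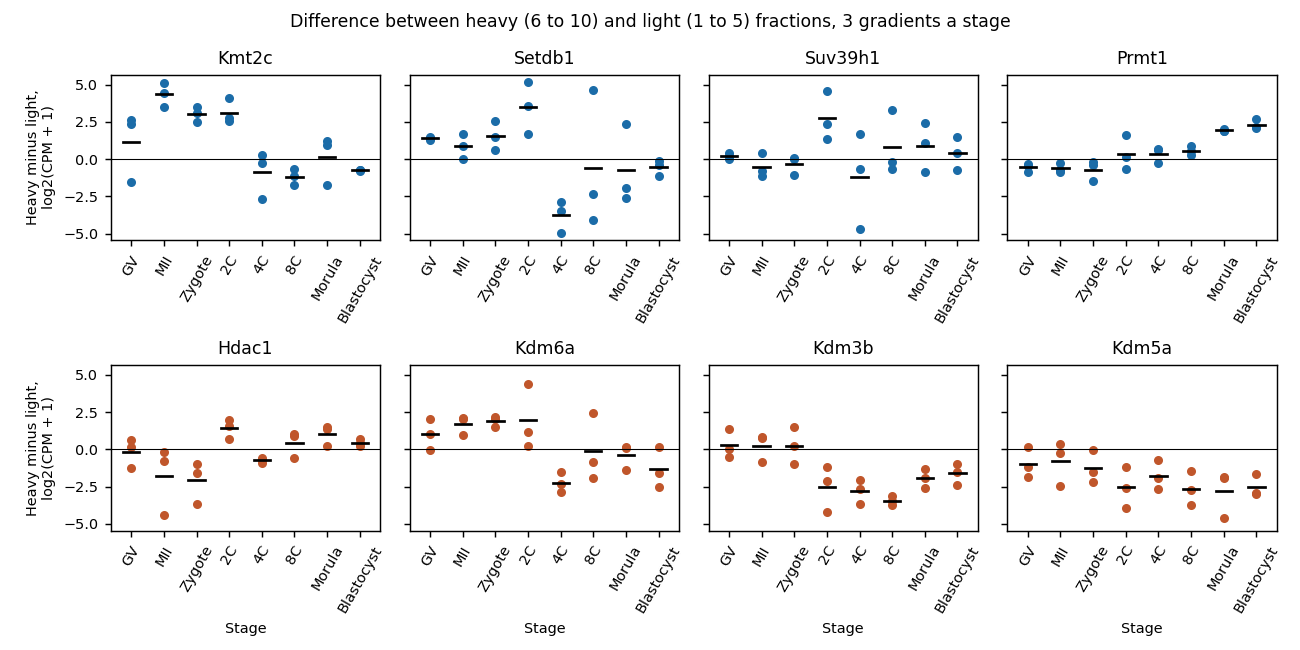
Heavy minus light difference on the log2(CPM + 1) scale for 4 writers (upper row) and 4 erasers (lower row) at 8 stages, with a point for each of 3 gradients and a bar at their mean. Kmt2c lies above 0 in all gradients from MII oocytes to 2-cell embryos, Setdb1 above 0 in 2-cell and below 0 in 4-cell embryos, and Prmt1 near 2 in morulae and blastocysts.

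A test of whether the heavy minus light difference changed between consecutive stages, added after the data were seen, called 12 of 504 member comparisons, over 11 members. Of these 9 fell between the 2-cell and the 4-cell stage, beside 14.1% of all genes. Setdb1 moved towards the light side by -7.26 (SE 1.56, adjusted p = 0.00378), Kdm3a by -7.48 (SE 1.74), Sirt5, a mitochondrial sirtuin, by -4.39, Kdm2b by -4.27, Kdm6a by -4.18, Kmt2c by -4.01 (SE 1.01, adjusted p = 0.0111), Suv39h1 by -3.99 and Setdb2 by -3.41, while Sirt6 moved towards the heavy side by 3.05 (SE 0.75). From the zygote to the 2-cell stage Hdac1 (3.50, SE 0.94) and Setdb2 (3.44, SE 0.84) moved to the heavy side, beside 5.38% of all genes, and from the 4-cell to the 8-cell stage Prmt3 did (4.61, SE 0.96), beside 3.18%. No member was called in the other 4 comparisons, where 0.356%, 0.0198%, 0.54% and 0.0132% of genes were. Without libraries under 1 M reads 13 member comparisons were called, 9 of them among the 12. The Setdb1 change was then -4.76 (SE 1.67, adjusted p = 0.0623) and was not called, nor were those of Suv39h1 (-3.85) and Sirt5 (-4.17), while that of Kmt2c was -3.31 (adjusted p = 0.0447).

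The full profiles show the same 2 genes fraction by fraction. Each fraction is scaled to its own library, so a profile is a relative one. In MII oocytes Kmt2c had 28.2% ± 25 (SD, n = 3) of its summed CPM in fraction 7, 21.7% ± 14.3 in fraction 8 and 24% ± 11.6 in fraction 9. Its mean fraction, weighted by CPM, was 7.76 ± 0.185 in MII oocytes, 7.93 ± 0.26 in zygotes, 6.76 ± 0.252 in 2-cell and 4.77 ± 1.32 in 4-cell embryos. Setdb1 had 79.9% ± 21.9 of its CPM in fraction 1 of 4-cell gradients, and its mean fraction was 7.24 ± 0.338 in 2-cell and 1.3 ± 0.177 in 4-cell embryos. These 4-cell values rest on few reads: the fraction 1 libraries of gradients A, B and C held 0.141, 0.347 and 0.282 M reads in all and 9, 61 and 10 reads of Setdb1. Without libraries under 1 M reads, an alternative added after the data were seen, its mean fraction in 4-cell gradients was 8.62 in A, with a sum of 1.62 CPM, 2.13 in B and 2.04 in C. That of Kmt2c was then 8.57, 6.88 and 5.17, so its lower 4-cell mean fraction rests on fraction 1 too.

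Medians were taken over genes with at least 10 CPM summed over the 10 fractions of each gradient, a limit on CPM and not on reads. In fraction 1 of GV gradients A and B, 1 read stood for 95.5 and 42.2 CPM and could meet it alone. The median of the mean fraction was 5.87 for 29 writers and 5.82 for 25 erasers in GV oocytes (5.77 for all genes). It was 4.77 for 26 writers and 4.36 for 17 erasers in 4-cell embryos (4.93 for all genes). The writer median was above the eraser median at every stage but the blastocyst, where it was 5.05 against 5.36. These class medians are a description, and their difference was not tested.

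**Figure D5:**
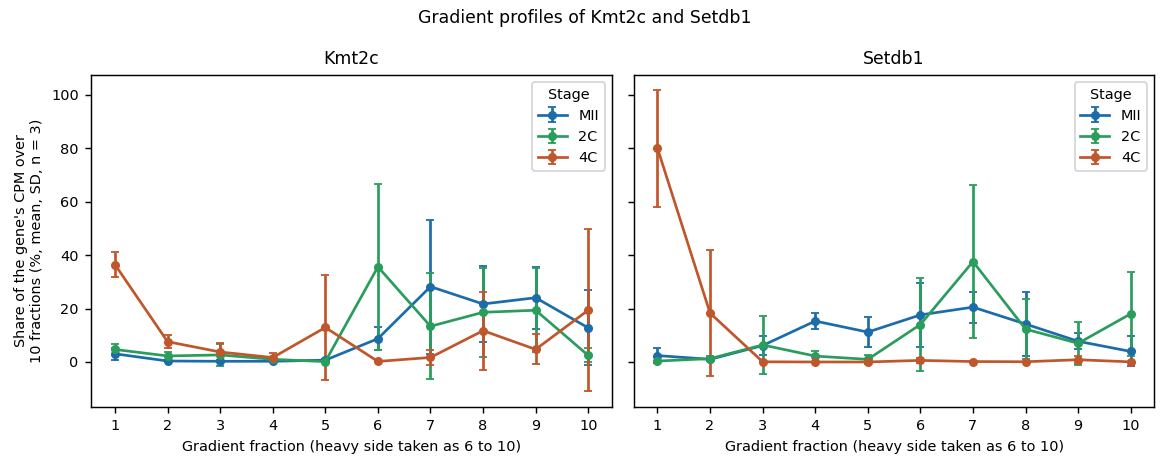
Share of a gene's CPM, summed over 10 fractions, found in each fraction of MII, 2-cell and 4-cell gradients for Kmt2c (left) and Setdb1 (right), as mean and SD over 3 gradients. In MII oocytes Kmt2c lies mainly in fractions 7 to 9, and in 4-cell embryos Setdb1 has 79.9% in fraction 1, where all 3 libraries hold under 1 M reads.

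Partners of the enzymes and histone-modifying enzymes with other names were counted from lists of 92 genes, of which 91 were tested in transcriptomes. From 2-cell to 4-cell embryos 37 were called higher and 24 lower, 67% in all against 64.8% of all genes. Partners of deacetylases and of Kdm1a were called 9 higher and 7 lower of 22, acetyltransferase partners 8 and 4 of 21, COMPASS partners, which serve the H3K4 methyltransferases, 5 and 3 of 10, and partners of Ezh1 and Ezh2 in Polycomb repressive complex 2 were called 3 and 3 of 9. In that complex Suz12 fell (-1.07) and Jarid2 rose (1.67), and Eed had a change of -0.75 (SE 0.15) that was not called. From the morula to the blastocyst 17 partners were called higher and 4 lower, 23.1% in all against 26.8% of all genes. By list these were 8 higher and 2 lower of 22 for deacetylases and Kdm1a, 1 and 1 of 21 for acetyltransferases, 2 and 1 of 10 for COMPASS, 2 and 0 of 8 for H3K9 methylation, 1 and 0 of 9 for Polycomb repressive complex 2, and 3 and 0 of 21 for enzymes under other names.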

How the data were processed

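The deposited values are CPM, which the authors made for 15854 symbols in 272 libraries. Per the submitters' processing notes the tools were Trim Galore 0.6.7, FastQC, HISAT2 2.2.1, featureCounts 2.0.1 and edgeR, with the GRCm39 genome, and whether reads were counted by strand is not given in the sources used here. In 9 deposited columns repeated symbols pushed the sum above the 1 M reads of the CPM scale, so they were recorded as signal, and they were used as CPM as the authors gave them. Symbols with identical values in every library (159) were reduced to 15771. Whole reads could be recovered in all 272 libraries (tolerance 0.05 reads) and were used for edgeR 4.0.16. In gradients edgeR used reads summed over the fractions of a side, so deep libraries weighed more than in the CPM means used for limma. The 2-cell fraction 7 of gradient B was left out of edgeR.

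The main test was limma 3.58.1 in R 4.3.3 on log2(CPM + 1), fitted over all stages and all genes with at least 1 CPM in 4 transcriptomes or 3 gradient means, with Benjamini-Hochberg adjustment over all genes, and tested on simulated data. Calls needed an adjusted p under 0.05 and a change of at least 1. A fold on this scale understates the change of low genes. Heavy and light values were means over fractions 6 to 10 and 1 to 5. Heavy and light sides of a gradient come from the same lysate, so these were also fitted with the gradient as a block (correlations of the paired deviations from 0.0078 to 0.25). Exon lengths for values per kb came from an annotation of another build.

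Named genes were, for each comparison, the 4 writers and 4 erasers with the largest change among those called, and a list of 21 well known enzymes, and other names were chosen after their values were seen. Members, roles, partner lists and marker lists were chosen with earlier results of these data known. The test of changes in the heavy minus light difference, the sums per kb, the alternative without members with many zeros, and the profiles and changes of that difference without libraries under 1 M reads were added after the data were seen.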

Additional observations from a re-analysis of the deposited data

Results flagged for a closer look

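In 23 of 404 groups of 4 transcriptomes 1 library lay far from the other 3, and chance alone marks about 1 in 20 such groups. Among erasers, Hdac2 had a 4-cell library at 298 CPM with the others at 165 to 181 CPM, and Sirt1 a 4-cell library at 171 CPM below 240 to 244 CPM. Hdac1 had a zygote library at 5.22 CPM (others 6.83 to 7.06), Hdac4 a 2-cell library at 2.89 CPM (1.1 to 1.4) and Sirt7 a morula library at 35.4 CPM (27.5 to 28.7). Kdm5a had a GV library at 9.92 CPM (3.42 to 4.27), Kdm5b a 2-cell library at 45.6 CPM (64.2 to 67.8), Kdm3b an 8-cell library at 70.6 CPM (51.9 to 53.9) and Kdm2a a zygote library at 4.78 CPM (5.67 to 5.84). Kdm3a had a 4-cell library at 125 CPM (108 to 110) and a morula library at 94.7 CPM (74.4 to 77.8). The summed CPM of all erasers was 2013 in 1 of the 4-cell libraries and 2264 to 2305 in the others.

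Among writers, Suv39h2 had a 4-cell library at 19.1 CPM (others 9.65 to 10.5) and a blastocyst library at 19.4 CPM (32 to 32.9). Ezh2 had a zygote library at 662 CPM (709 to 716), Kmt2c a 2-cell library at 296 CPM (247 to 253), Kmt2d a morula library at 16.7 CPM (9.12 to 9.56) and Kmt5b a blastocyst library at 58.1 CPM (47.6 to 49.3). Prmt7 had such a library in zygotes (3.17 CPM, others 1.43 to 1.61), 4-cell embryos (11.8 CPM, others 16.1 to 16.9) and 8-cell embryos (21.6 CPM, others 13.1 to 14.2). Kat2b had a 2-cell library at 0.257 CPM (2.53 to 2.88) and Setdb2 a morula library at 21.3 CPM (15.5 to 15.8).

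The heavy minus light difference changed between consecutive stages, by a test of that change in limma with Benjamini-Hochberg adjustment, for 11 members. From the zygote to the 2-cell stage these were Hdac1 (3.50, adjusted p = 0.0315) and Setdb2 (3.44, adjusted p = 0.018). From the 2-cell to the 4-cell stage they were Setdb1 (-7.26), Kdm3a (-7.48), Sirt5 (-4.39), Kdm2b (-4.27), Kdm6a (-4.18), Kmt2c (-4.01), Suv39h1 (-3.99), Setdb2 (-3.41) and Sirt6 (3.05), with adjusted p from 0.00378 to 0.0487. Without libraries under 1 M reads those of Setdb1, Suv39h1 and Sirt5 were not called. From the 4-cell to the 8-cell stage Prmt3 changed by 4.61 (adjusted p = 0.0117).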

How the results depend on the processing

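Member counts in transcriptomes moved by over 1.5 times in 2 comparisons. From MII to zygote 8 were called with log2(CPM + 0.1) or edgeR on recovered reads (3 in the main test), and from 4-cell to 8-cell embryos 1 under log2(CPM + 0.1), without a filter, with quantile normalization, with only the groups compared, and with edgeR (2). When each fit held the compared groups alone, heavy fraction counts were 11 (GV to MII), 2, 7, 9, 0 and 5 in the first 6 transitions. Heavy against light counts were then 4 (GV), 16, 17, 0, 0, 2, 11 and 19 (blastocyst) in the order of stages. The shares of all genes given above are those of the main fit, and they are no background for counts under other settings. Quantile normalization gave 2 (GV to MII) and 5 (8-cell to morula) in heavy fractions, and 2 in MII, zygote, 4-cell and blastocyst and 7 in morula for heavy against light. With edgeR 2 members were called in heavy fractions from 4-cell to 8-cell, and for heavy against light 0 in zygotes and morulae and 1 in 8-cell embryos. With members above 0 reads in most fractions, counts were 4 (zygote to 2-cell), 5, 0 and 1 in heavy fractions and 5 (2-cell) and 1 (4-cell) for heavy against light. Fractions 7 to 10 against 1 to 4 gave 15 in 4-cell embryos and 2 in blastocysts, and leaving out libraries under 1 M reads gave 6 (8-cell), 1 (morula) and 2 (blastocyst). In 2-cell embryos Kdm5a went from -2.56 to 0.70 with edgeR and to 1.03 without libraries under 1 M reads, and Kdm3b from -2.50 to 1.95 without them. The cause was not tested in any of these cases, apart from the smaller number of members under the filter on zeros.

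Leaving out 1 library or gradient gave transcriptome counts of 23 to 28, 3 to 5, 22 to 29, 45 to 48, 0 to 2, 6 to 8 and 14 to 21 in the order of stages, heavy fraction counts of 0 to 1, 0 to 0, 7 to 12, 24 to 26, 4 to 10, 2 to 3 and 0 to 0, and heavy against light counts of 0 to 0, 1 to 1, 0 to 1, 4 to 14, 8 to 15, 4 to 5, 2 to 2 and 1 to 1.

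The eraser to writer ratio of summed CPM moved when taken per kb, to 0.351 (GV), 0.424 (MII), 0.421 (zygote), 0.648 (2-cell) and 0.714 (blastocyst), and without Ezh2 and Hdac1 per kb it was 0.436, 0.747, 0.892, 0.971, 0.818, 0.673, 0.702 and 0.686 from GV to blastocyst.

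With the replicate block, pairing the sides of each gradient, heavy against light counts were 0, 1, 1, 13, 8, 11, 5 and 2 from GV to blastocyst, and the calls of Setd1a in 4-cell embryos and Kdm2a in morulae were lost. Letters of libraries and gradients did not pair stages (correlations from -0.18 to 0.17), and a block by letter gave heavy fraction counts of 1, 0, 12, 27, 4, 3 and 0. In transcriptomes it gave 25 (GV to MII), 3, 2, 7 and 16 in the 5 comparisons without 2-cell libraries, whose letters differ. In 2-cell and 4-cell gradients 3 and 4 of 30 libraries held under 1 M reads, and 43.8% and 46.1% of heavy fraction values of members were 0. The part of depth in these zeros was not tested.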
